A study of Homo sapiens with 29 samples.

Results

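The wave course of control cells was analysed in 4 DRB/TTchem-seq libraries of HEK293, a human embryonic kidney cell line, at 10, 20, 30 and 40 min after release from DRB. The members are the 2419 genes with a coverage of at least 100 rpm (reads scaled to a sum of 1000000 over the listed genes), of the 4592 protein-coding genes listed in the control table (52.7%). The cells carried a nonsense hairpin (shCr, labelled shCtrl) delivered by lentivirus for 4 days, with no gene targeted. All 4 cultures were held in 100 μM DRB for 3.5 h and then labelled with 1 mM 4SU. Each release time was 1 dish and 1 library of 1 cell line, so no p-value is given. The 25 other samples of the study were not used. Intervals below are 95% intervals over genes (Wilson for shares, binomial order statistics for medians). Neighbouring genes share libraries and are not replicates.

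DRB inhibits CDK9, the kinase that lets RNA polymerase II (Pol II) leave the promoter-proximal pause. During the block the polymerases already in the gene body run off, and wash-out lets a new front start near the TSS. The nascent RNA labelled with 4SU then shows how far this front has moved, and the position called for it from the coverage of a gene is the wave peak. Positions are in kb, counted from the TSS, and the authors' window runs from 2 kb before it to 120 kb after it. The lowest possible value, -1.999 kb, is therefore the first position of the window and the highest, 120 kb, is the last.

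The labelled cell type was checked on coverage. Of 40 listed markers of other cell types only LDB3, a muscle sarcomere protein, reached 100 rpm, and the median of the list was 11.9 rpm against 110 rpm over all listed genes. LDB3 had 198 rpm, but its wave peaks lay at 88.8, 88.9, 89.4 and 91.2 kb, beyond the 69.3 kb of the gene, and the 40 min peak lay inside BMPR1A. Of 8 listed genes known from HEK293 cells, 4 reached 100 rpm, namely LAMC1 (517 rpm), FGFR1 (496 rpm), BMP7 (209 rpm) and LRP6 (160 rpm). The others were PAX2, a kidney lineage factor (57.7 rpm), LAMA1 (55.4 rpm), ITGA6 (27.8 rpm) and CDH2 (16.7 rpm), and the median of this list, 109 rpm, was no higher than that of all listed genes. Reads per library are unknown, since the coverage is deposited only as 1 value per gene scaled to 1000000 over the listed genes.

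The median wave peak of the 2419 genes lay 5.30 kb from the TSS after 10 min (95% interval 4.51 to 6.37). It lay at 6.51 kb (6.09 to 6.92), 11.2 kb (10.2 to 12.9) and 12.6 kb (11.5 to 14.0) after 20, 30 and 40 min. The spread over genes was far wider than these steps, with quartiles of -1.999 and 74.9 kb at 10 min and of 6.59 and 73.6 kb at 40 min. The median was higher at each later time, and the upper quartile was not. The direction from 10 to 20 min depended on the genes included. It turned with no coverage minimum, where the medians were 14.7 and 7.67 kb, and without wave peaks at the ends of the window, where they were 43.1, 8.85, 14.7 and 13.9 kb. Wave peaks before the TSS fell from 36.4% of genes at 10 min to 26.3%, 16.1% and 11.9% at the later times. Wave peaks inside the gene and within 20 kb of the TSS made up 22.4% of genes at 10 min, 40.4% at 20 min, 40.3% at 30 min and 44.5% at 40 min. Wave peaks inside the gene but over 40 kb from the TSS were most frequent at 10 min (18.1%), against 8.76%, 15.7% and 13.9% later. Such a peak was counted in 437 genes after 10 min and in 212 after 20 min.

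**Figure D1:**
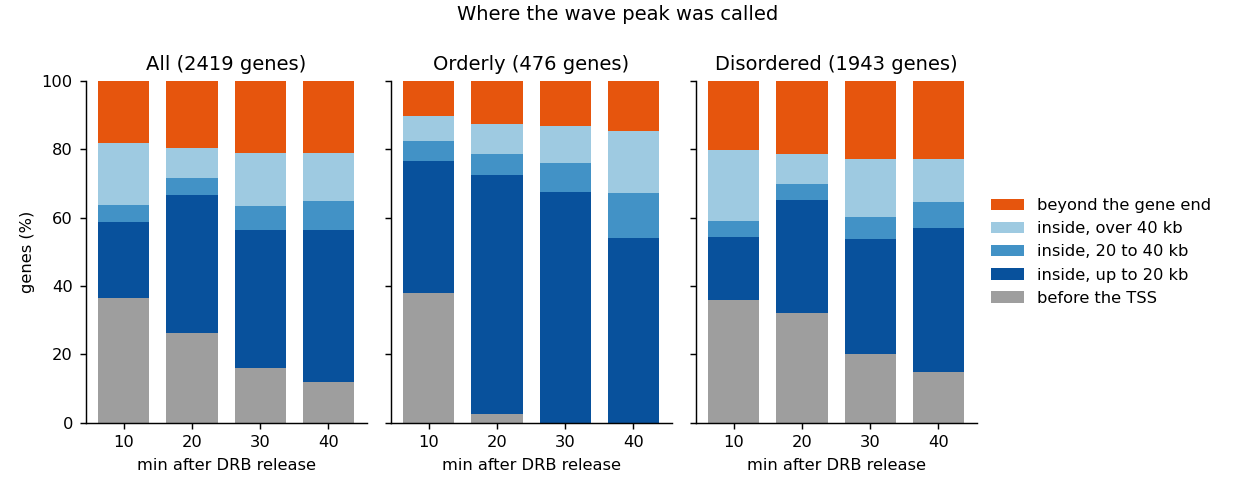
Share of genes (%, vertical axis) by the place of the wave peak at each release time (min, horizontal axis), for all 2419 genes, the 476 orderly and the 1943 disordered genes. Wave peaks before the TSS (grey) fell from 36.4% to 11.9% of all genes, while those beyond the gene end (orange) stayed between 18.3% and 21.1%.

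In many genes the wave peak was called at the start of the window at the early times. After 10, 20, 30 and 40 min 861, 614, 375 and 283 genes had their wave peak at the window's first position, and 233 genes had it there throughout. The 337 genes that had left this position for the first time at 20 min then had a median wave peak of 3.89 kb. For the 192 genes that left it at 30 min the median on appearance was 5.20 kb, and for the 99 that left it at 40 min it was 5.52 kb. The quartiles of these entry positions overlapped between the 3 times. Of the genes that left by 20 min, 320 stayed off the first position, and their medians from 20 to 40 min were 3.89, 7.33 and 9.63 kb. The 173 genes that left by 30 min and stayed off it had medians of 4.88 kb and, 10 min later, 8.14 kb. In 139 genes the wave peak lay at the first position after it had lain elsewhere at an earlier time. Not all of these were returns, since they include 64 genes that stood there only at 20 min. These groups were formed from the wave peaks themselves after their values were seen, so the values are a description.

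Genes whose 4 wave peaks all lay between 0 and 40 kb numbered 472, and their medians were 5.21, 6.99, 9.33 and 10.1 kb. In the 546 genes whose 4 wave peaks all lay over 40 kb the medians were 94.2, 96.2, 95.2 and 97.0 kb. Wave peaks of this far group were beyond the gene end in 68.1% of genes at 10 min and in 69.8% at 40 min. In 350 genes (14.5%) the 4 wave peaks stayed within 1 kb of each other. Of these, 233 stood at the first and 73 at the last position of the window, and 44 stood elsewhere.

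A gene was called orderly when each wave peak lay farther downstream than the one before. By this rule 476 of the 2419 genes were orderly (19.7%, 95% interval 18.1% to 21.3%), against 13.2% of all listed genes. The exactly opposite order was found in 46 genes (1.90%), against 2.09% of all listed genes. From 10 to 20 min the wave peak moved downstream in 1127 genes (46.6%, against 43.2% of all listed genes), stayed in 618 and moved upstream in 674 (27.9%, against 32.2%). From 20 to 30 min it moved downstream in 1475 genes (61.0%, against 53.7%) and upstream in 474 (19.6%, against 25.5%). From 30 to 40 min it moved downstream in 1269 genes (52.5%, against 48.5%) and upstream in 776 (32.1%, against 34.9%). Each downstream share was above that of all listed genes.

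Disordered genes were of more than 1 kind. In 554 genes no wave peak moved upstream and at least 1 step was 0, and in 1389 genes at least 1 step went upstream. A single upstream step was found in 900 genes, and in 272 of them it was the last step. Upstream steps from 10 to 20 min were long, with a median of 19.0 kb over 674 genes, and 272 exceeded 40 kb. Those from 20 to 30 min were short, with a median of 1.73 kb over 474 genes, and 256 were under 2 kb. From 30 to 40 min the median upstream step was 3.38 kb over 776 genes, and 145 exceeded 40 kb.

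In orderly genes the median wave peak lay at 2.42, 6.72, 8.89 and 14.2 kb. The median step was 3.25 kb from 10 to 20 min (95% interval 2.98 to 3.54), 1.79 kb from 20 to 30 min (1.52 to 1.97) and 2.37 kb from 30 to 40 min (2.06 to 2.63). All steps are positive by the rule, so only their sizes are described. Of the 476 genes, 169 began at the window start and had a median first step of 4.73 kb. Among the 295 orderly genes with a 10 min wave peak after the TSS the medians were 2.55, 1.47 and 2.06 kb. The middle step was the smallest of the 3 in either set.

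The steps of a gene were unequal. The first step was its largest in 216 orderly genes (45.4%), the middle step in 97 (20.4%) and the last in 163 (34.2%). The largest step exceeded 50% of the whole distance in 359 genes, and the median ratio of the largest to the smallest step was 7.18. From 10 to 20 min 233 genes (48.9%) stepped 2 to 5 kb and only 24 stepped over 10 kb. From 30 to 40 min 210 genes (44.1%) stepped up to 2 kb and 100 stepped over 10 kb, 27 of them over 40 kb. The last step thus had both more short and more very long steps than the first. At least 1 step over 40 kb was found in 51 genes, and in 239 genes every step was under 5 kb. Over the 476 genes, which share the 4 libraries, Spearman's rho between the first and the last step was 0.10.

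**Figure D2:**
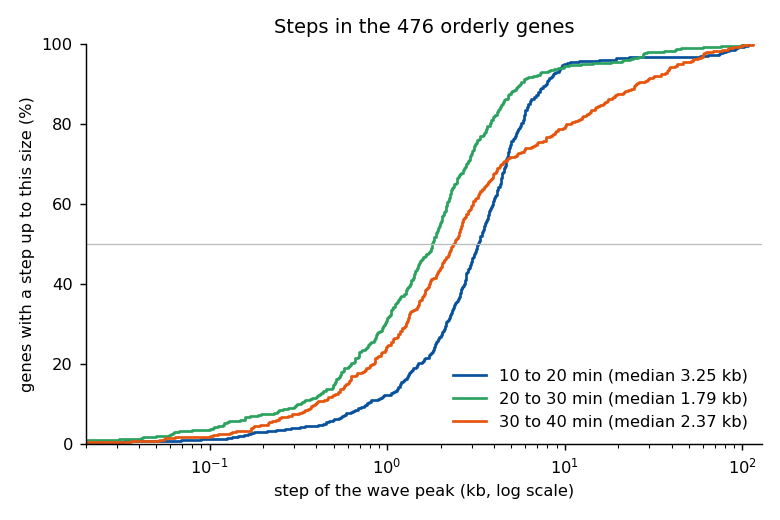
Cumulative share of the 476 orderly genes (%, vertical axis) against the step of the wave peak in kb (horizontal log axis), 1 line per pair of release times. The medians are 3.25, 1.79 and 2.37 kb, and the line of the last step (orange) rises slowly beyond 10 kb, where 100 genes lie.

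The least-squares slope over the 4 times had a median of 0.305 kb/min in orderly genes (95% interval 0.270 to 0.335), with quartiles of 0.190 and 0.618 kb/min. Slopes under 0.5 kb/min were found in 341 of the 476 genes (71.6%) and slopes over 2 kb/min in 33. Without the 51 genes with a step over 40 kb no slope exceeded 1.78 kb/min and the median was 0.266 kb/min. The deposited rates add a point at 0 min at the start of the window, 2 kb before the TSS. With this point the median of the 476 genes was 0.400 kb/min. Spearman's rho of the slope was -0.09 with coverage and 0.06 with gene width over these genes.

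The TSS of the authors' window was read as the annotated gene start, the outermost of the starts of its transcripts. Many genes have several promoters, and the Ensembl canonical transcript can start far inside the gene. The distance of the wave peak from both starts was therefore compared in genes whose listed width equals that in GENCODE release 44 (2310 of the 2419). This comparison was chosen after the data were seen. In 423 of these genes (18.3%) the canonical start lay over 5 kb after the gene start. Among genes with a 10 min wave peak inside the gene, they made up 12.4% where the wave peak lay within 20 kb, 59.1% where it lay at 20 to 40 kb and 34.1% where it lay over 40 kb.

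Of the 225 orderly genes with all 4 wave peaks inside the gene and the annotated width, 69 had their canonical start over 5 kb after the gene start (median 27.2 kb, range 5.32 to 133 kb). Counted from the gene start, their median wave peaks lay at 28.9, 32.3, 38.6 and 40.7 kb. From the canonical start the same wave peaks lay at 3.34, 6.04, 7.86 and 10.1 kb. The other 156 genes, whose 2 starts are within 5 kb, gave 3.19, 6.42, 8.30 and 10.6 kb from the canonical start. At 10 min the interval of the median was 2.73 to 3.99 kb in the 69 genes and 2.78 to 3.65 kb in the 156 genes. On the canonical scale these intervals overlapped, whereas from the gene start the 10 min medians were 28.9 and 3.47 kb. The 10 min wave peak was 0 to 20 kb after the canonical start in 65 of these 69 genes, against 20 genes after the gene start. The order rule compared wave peaks only with each other and did not use the canonical start. The gene start did enter, since the window was laid from it and all 4 wave peaks had to lie inside the gene.

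**Figure D3:**
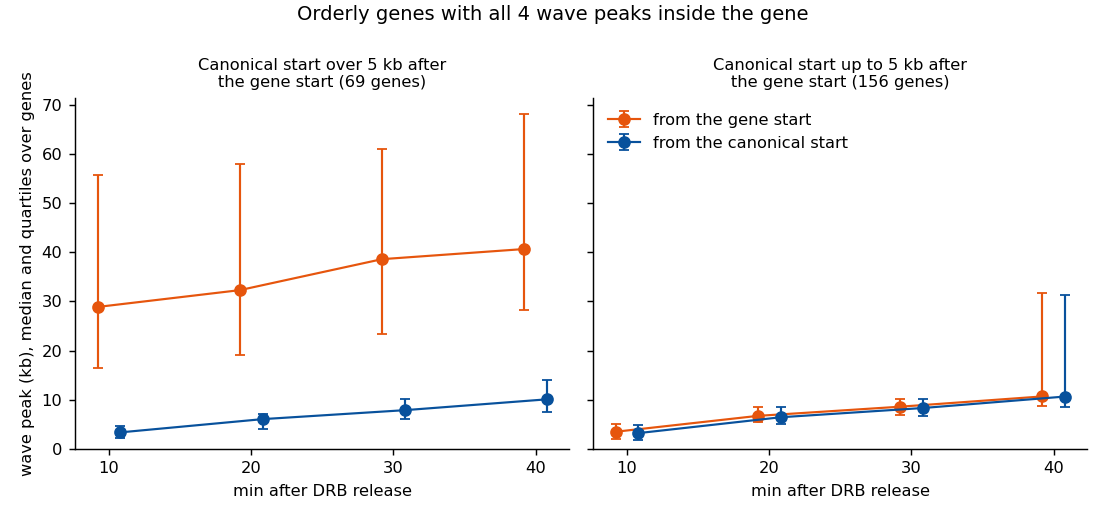
Median wave peak in kb (points, vertical axis) with the quartiles over genes (bars) by release time (min, horizontal axis), from the gene start (orange) and from the canonical start (blue). In the 69 genes with a distant canonical start the medians run from 28.9 to 40.7 kb from the gene start and from 3.34 to 10.1 kb from the canonical start.

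Disordered genes with all wave peaks inside the gene were compared likewise. In 170 of them the canonical start lay over 5 kb after the gene start, and the medians were 50.5, 38.8, 45.6 and 42.7 kb from the gene start and 5.32, 6.27, 8.25 and 8.503 kb from the canonical start. In 490 disordered genes with a near canonical start the medians from it were 12.3, 6.53, 10.7 and 9.89 kb. The intervals of these groups did not overlap at 10 min (4.45 to 6.499 against 8.88 to 27.2 kb) and at 30 min (7.44 to 9.70 against 10.03 to 12.2 kb). Their upper quartile at 10 min was 63.8 kb, against 19.4 kb in the 170 genes. Counted from the canonical start, the median of the 170 genes did not step back at any time. However, 24, 31, 26 and 27 of their wave peaks lay before that start, which lowers these medians. In the 490 genes 2, 4, 0 and 1 did so. At 10 min 104 of the 170 and 253 of the 490 genes had their wave peak 0 to 20 kb after the canonical start.

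The bases before the starts differed too. Over the 69 genes the 200 bases before the gene start held a median of 4 CpG dinucleotides (quartiles 2 and 16) and were 50% G and C, and those before the canonical start held 20 (15 and 25) and were 69% G and C. The canonical start had more CpG in 59 of the 69 genes and fewer in 10. This was not particular to orderly genes. Over all 423 genes with a distant canonical start it had more in 302 and fewer in 110, with medians of 7 and 19 CpG before the 2 starts. Of the 239 such genes with all wave peaks inside the gene, it had more in 193 and fewer in 41. CpG-rich stretches are known as the usual promoters of broadly expressed genes. In the 156 genes with near starts the medians were 19 and 23. RefSeq start entries on GRCh38.p14 matched 56 of the 69 genes, and an entry lay within 1 kb of the canonical start in 51 and of the gene start in 15. Of all 423 genes with a distant canonical start 357 matched, and the counts were 337 and 103. The entries are annotation and hold no information on the wave peaks.

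The 200 bases before each start are shown for 2 genes, chosen for high coverage among those of the 69 with no annotated exon in either stretch. In GATAD2A the canonical start is the richer in CpG, and in CTBP2 the gene start is. They are from GRCh38, 5′ to 3′ on the strand of the gene, and capitals mark CpG.
GATAD2A gene start, chr19:19385626-19385825, plus strand: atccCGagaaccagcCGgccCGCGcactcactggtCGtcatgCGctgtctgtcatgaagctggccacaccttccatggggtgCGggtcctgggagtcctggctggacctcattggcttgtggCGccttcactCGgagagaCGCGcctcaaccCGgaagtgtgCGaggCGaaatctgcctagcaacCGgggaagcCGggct
GATAD2A canonical start, chr19:19405475-19405674, plus strand: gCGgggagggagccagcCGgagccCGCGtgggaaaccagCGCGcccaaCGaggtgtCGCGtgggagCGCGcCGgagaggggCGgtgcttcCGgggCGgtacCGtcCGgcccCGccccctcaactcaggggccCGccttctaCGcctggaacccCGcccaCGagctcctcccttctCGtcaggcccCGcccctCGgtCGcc
CTBP2 gene start, chr10:125161171-125161370, minus strand: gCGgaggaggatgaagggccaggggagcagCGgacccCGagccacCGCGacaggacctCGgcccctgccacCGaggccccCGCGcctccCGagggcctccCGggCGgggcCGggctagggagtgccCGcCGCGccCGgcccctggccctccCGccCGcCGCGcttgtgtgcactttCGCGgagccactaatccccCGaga
CTBP2 canonical start, chr10:125028072-125028271, minus strand: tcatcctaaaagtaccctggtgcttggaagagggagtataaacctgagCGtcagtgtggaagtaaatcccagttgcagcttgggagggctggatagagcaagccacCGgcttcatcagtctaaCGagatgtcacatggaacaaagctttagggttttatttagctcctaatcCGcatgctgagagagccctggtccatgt

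GATAD2A (chr19:19385826-19508932), a subunit of the NuRD chromatin remodelling complex, had 16 CpG before its gene start and 26 before its canonical start. Its wave peaks lay at 26.2, 29.7, 32.7 and 33.9 kb from the former and at 6.33, 9.85, 12.9 and 14.0 kb from the latter. CTBP2 (chr10:124984317-125161170), a transcriptional corepressor, was the reverse, with 24 CpG before the gene start and 4 before the canonical start, which lies 133 kb inside the gene. Its wave peaks lay at 5.12, 11.1, 11.5 and 11.8 kb from the gene start, all before the canonical start.

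CTBP2 was 1 of 4 genes among the 69 whose 10 min wave peak lay before the canonical start. The others were ANKMY1, ECE1, which encodes an endothelin-converting enzyme, and NDST1, a heparan sulphate sulphotransferase. CTBP2, ECE1 and NDST1 had more CpG before the gene start (24 against 4, 21 against 16 and 22 against 4), and ANKMY1 had fewer (8 against 21). Fewer CpG before the canonical start were found in 10 of the 69 genes, and of these only CTBP2, ECE1 and NDST1 had such a 10 min wave peak. Counted from whichever start held more CpG, 63 of the 69 genes had their 10 min wave peak 0 to 20 kb downstream. From the canonical start alone it was 65. The medians from the start with more CpG were 3.89, 6.33, 8.00 and 10.6 kb. PTP4A1, a phosphatase of the PRL family, NR3C1, the glucocorticoid receptor, and PTPN2, a tyrosine phosphatase, were far examples chosen after their values were seen. PTP4A1 lay at 53.6 to 55.8 kb from the gene start and at 2.83, 3.55, 4.52 and 5.06 kb from the canonical start. NR3C1 went from 33.3 to 35.6 kb and, from its canonical start, through 1.51, 2.10, 3.38 and 3.78 kb. PTPN2 lay at 3.34, 3.88, 4.94 and 5.79 kb from a canonical start 45.4 kb inside the gene.

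Named slow, steady and fast genes were taken from the orderly genes with all 4 wave peaks inside the gene. The lowest slope was that of UBE2E3, a ubiquitin-conjugating enzyme (0.0452 kb/min). Its wave peaks lay at 17.7, 19.0, 19.0 and 19.2 kb, with a first step of 1.32 kb and later steps of 0.009 and 0.175 kb. From its canonical start it lay at 4.33 to 5.83 kb. TMED3, a cargo receptor of the early secretory pathway, lay at 4.26, 5.50, 5.90 and 6.19 kb (0.0620 kb/min). VPS53, a subunit of a Golgi tethering complex, lay at 12.1, 12.6, 12.6 and 14.2 kb (0.0623 kb/min). LMF1, a factor for lipase maturation, lay at 12.3, 13.6, 14.1 and 14.3 kb (0.0651 kb/min). EXOC2, an exocyst subunit, lay at 2.46, 4.17, 4.30 and 4.67 kb (0.0675 kb/min). In TMED3, LMF1 and EXOC2 the first step was the largest, and in VPS53 the last was.

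The steadiest courses, with the smallest scatter about the line relative to the distance covered, spanned 10.5 to 22.5 kb in 30 min. SETD7 (chr4:139495941-139606699, minus strand), a lysine methyltransferase, moved by 9.36, 4.36 and 8.82 kb from 55.8 to 78.3 kb, at 0.720 kb/min with a scatter of 1.07 kb. Its canonical start lies 50.5 kb inside the gene, and from there it ran from 5.29 to 27.8 kb. RALGAPA1, a subunit of a Ral GTPase-activating complex, lay at 0.127, 5.64, 9.41 and 12.4 kb (0.406 kb/min). LCLAT1, a lysocardiolipin acyltransferase, took nearly the same course, at 0.274, 5.63, 8.73 and 11.3 kb (0.362 kb/min). PTPN1, a tyrosine phosphatase of insulin signalling, lay at 0.542, 6.51, 9.51 and 11.4 kb (0.357 kb/min). In RALGAPA1, LCLAT1 and PTPN1 each step was shorter than the one before. RFC1, the large subunit of the clamp loader, had steps that grew, 2.04, 2.75 and 5.71 kb, and PLEKHB2, an endosomal protein, covered 18.4 kb with its largest step of 10.6 kb in the middle.

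The highest slopes came with a single long step. INSR (chr19:7112255-7294414, minus strand), the insulin receptor, lay at 3.67, 9.08 and 36.7 kb and then at the last position of the window (3.77 kb/min). PHACTR4, a regulator of protein phosphatase 1, lay at 1.21, 2.02 and 3.01 kb and then at 92.1 kb (2.74 kb/min). In PALD1 the wave peak went from 4.13 to 64.3 kb between 20 and 30 min, and in NF2, which encodes merlin, from 5.10 to 67.8 kb. NF2 then moved by only 0.130 kb. SNX25, a sorting nexin, stepped 45.4 kb from 20 to 30 min, and STK24, a kinase of the sterile 20 family, stepped 62.8 kb from 30 to 40 min. In these 6 genes the scatter about the line was 8.60 to 24.1 kb, so the slope does not describe an even advance.

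**Figure D4:**
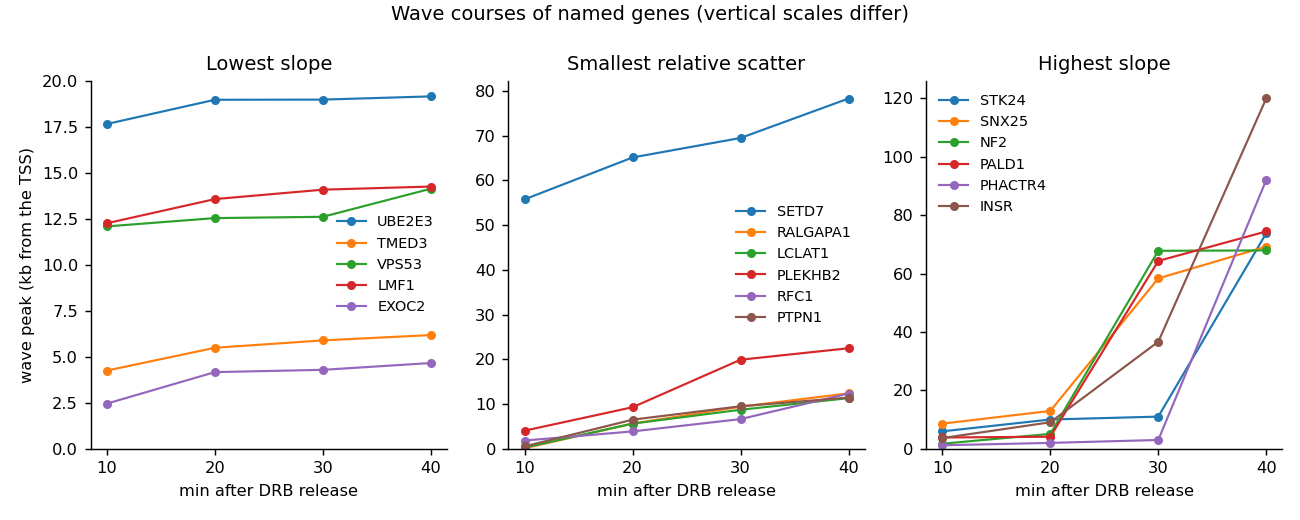
Wave peak in kb from the TSS (vertical axes, different scales) by release time (min, horizontal axis) for 5 of the 6 genes of lowest slope, the 6 of smallest relative scatter and the 6 of highest slope, 1 library per point. The slow genes move by 1.502 to 2.21 kb in all, and each fast gene has a step of at least 45.4 kb.

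The largest single steps of orderly genes were found in FOXO3, ZNF19, PEMT and YAF2. FOXO3, a forkhead transcription factor, lay at -1.999, 1.94 and 4.86 kb and then at the last position of the window, 4.94 kb before the gene end. ZNF19, a zinc finger protein, went from the first position of the window to 107, 110 and 110 kb. PEMT, a phosphatidylethanolamine methyltransferase, went from the first position to 106, 106 and 107 kb, 20.7 kb beyond its end and inside MED9. YAF2, a partner of Polycomb complexes, went from the first position to 100.3, 103 and 104 kb, where GXYLT1 is annotated. In 3 of these 4 genes the step ended beyond the gene, and the later steps were at most 3.06 kb.

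Orderly genes of highest coverage had several kinds of course. SMAD6, an inhibitor of BMP signalling with 1657 rpm, lay at 4.43, 6.70, 7.59 and 14.2 kb. BCOR, a corepressor with 1775 rpm, lay at 85.8, 90.0, 90.6 and 106 kb from the gene start and at 6.47, 10.6, 11.2 and 26.5 kb from the canonical start. ACLY, the cytosolic enzyme that makes acetyl-CoA from citrate (1903 rpm), stepped from 29.8 to 71.6 kb in the last interval and ended 7.93 kb beyond the gene, inside KLHL11. ARHGEF2, a guanine nucleotide exchange factor with 2300 rpm, lay at 75.4, 75.5, 76.8 and 79.5 kb, all beyond its 60.2 kb and inside KHDC4.

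Of the 4 disordered genes of highest coverage 3 stood within 1 kb. CROCC, a ciliary rootlet protein, had 73572 rpm, and its wave peaks lay at 12.83, 12.90, 12.96 and 12.91 kb. Its canonical start lies 182 kb inside the gene, after the end of the window. CROCC has copies of similar sequence, so its reads are uncertain. The U1 gene RNU1-4 lies within 5 kb of the start of its window, but 12422 bp from the 10 min wave peak. CCDC200 was the exception, with 7519 rpm and wave peaks at 27.8, 27.7, 48.5 and 48.9 kb, and the 10 min peak lay 401 bp from an annotated U2 gene. All 4 lay before its canonical start, which is 76.8 kb inside the gene. ENSG00000205236 had 7624 rpm and wave peaks of 76.7, 76.7, 77.1 and 77.0 kb, inside POLR2J3, a member of a family of near-identical copies. SLC5A10, a sugar transporter gene with 6094 rpm, was at the last position at all 4 times, 6209 bp from SNORD3B-2, a U3 gene. The part of these small RNA genes and copies in the coverage was not tested.

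Wave peaks beyond the end of the gene were found in 442 genes at 10 min (18.3%, 95% interval 16.8% to 19.9%), 475 at 20 min (19.6%), 506 at 30 min (20.9%) and 510 at 40 min (21.1%, 19.5% to 22.8%). Only the 1581 genes narrower than 120 kb can have such a peak, and in these the shares were 28.0%, 30.0%, 32.0% and 32.3%. The share was thus nearly as high after 10 min as after 40 min. All 4 wave peaks lay beyond the end in 356 genes. Orderly genes had fewer, 49 genes (10.3%) at 10 min and 69 (14.5%) at 40 min, and 20 orderly genes crossed the end between 10 and 40 min. Of the 226 genes marked by the authors' filter, 41 had all 4 wave peaks beyond the end.

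Most of these wave peaks lay in another gene. Of those beyond the end, 92.7% (392 of 423) lay within another annotated protein-coding gene at 10 min, 92.7% at 20 min, 93.6% at 30 min and 93.8% at 40 min, on either strand. Of all window positions beyond the gene, taken 1 kb apart, 55.1% did so. Inside the own gene 8.80% of wave peaks lay within another coding gene at 10 min and 7.43% at 40 min, against 7.44% of positions. In 275 of the 340 genes with the annotated width and 4 wave peaks beyond the end, all 4 lay in the same other coding gene, and 39 of the 275 were orderly. Whether the libraries kept the strand is not given in the sources used here, so signal of a gene and of its neighbour cannot be told apart.

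**Figure D5:**
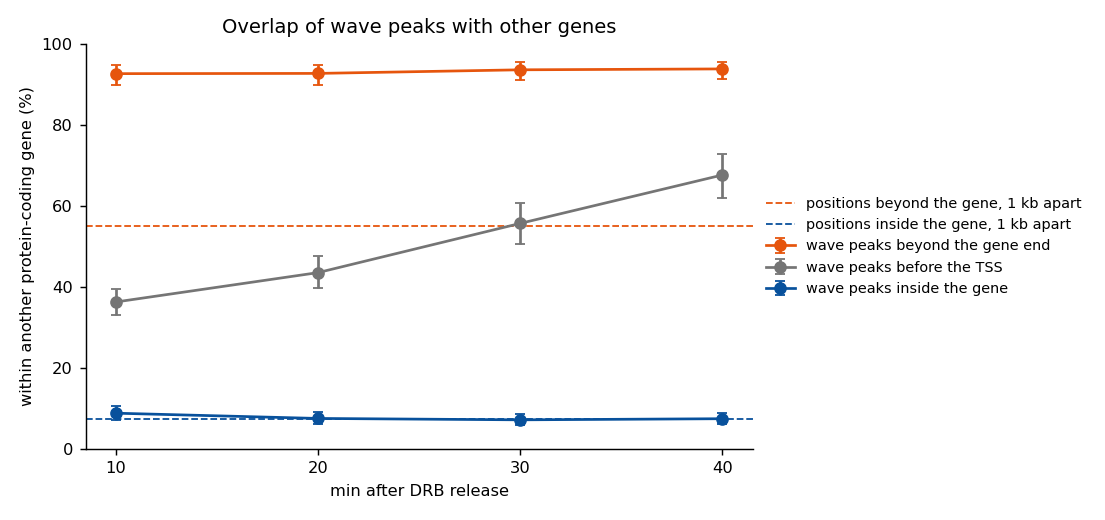
Share of wave peaks within another protein-coding gene (%, vertical axis) by release time (min, horizontal axis), with 95% Wilson intervals, for wave peaks beyond the gene end, before the TSS and inside the gene. Dashed lines are the shares of positions beyond (55.1%) and inside the gene (7.44%). For wave peaks before the TSS the share rises from 36.3% (305 of 841) to 67.6% (186 of 275), while the count falls.

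The examples below are genes of high coverage, chosen after their values were seen. MAP2K1, a MAP kinase kinase, had wave peaks at 118, 116, 116 and 116 kb, beyond its 105 kb and inside RPL4, a ribosomal protein gene. SPG7, a mitochondrial protease, had them at 71.8, 72.4, 71.7 and 71.6 kb inside RPL13. GPBP1L1 had them at 99.8, 98.3, 99.2 and 96.4 kb inside NASP, and AP1B1 and KPNA6 stood at the last position of the window, inside EWSR1 and EIF3I. Orderly examples moved by short steps inside the neighbour. NUP160, a nucleoporin, lay at 85.7, 88.4, 89.0 and 89.6 kb inside FNBP4. WIPF2 lay at 71.0, 72.5, 73.1 and 73.6 kb inside CDC6, and DENND6A at 98.6, 100.5, 103 and 105 kb inside ARF4. The wave peaks farthest beyond the end at 40 min were those of FAM219A, ZNF341 and BCL7C, at the last position and 59.3 to 59.6 kb beyond the end. FAM219A alternated, with 0.964, 120, 7.09 and 120 kb, and its peaks at 20 and 40 min lay inside NUDT2. ZNF341 was orderly at 87.8, 92.5, 93.8 and 120 kb inside CHMP4B.

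Wave peaks before the TSS met neighbours as well. They lay within another coding gene in 305 of 841 genes at 10 min (36.3%) and in 262 of 602 at 20 min (43.5%). At 30 min it was 206 of 370 (55.7%) and at 40 min 186 of 275 (67.6%). The share thus rose while the count fell, as fewer wave peaks lay before the TSS. The share over all positions before the TSS was not counted. In the genes that stood at the window start at all 4 times another coding gene covered that position in 157 of 223 (70.4%, 64.1% to 76.0%), against 26.1% of genes that stood there 1 to 3 times and 17.2% of those never there. Small RNA genes within 5 kb of the window start were found in 6.28%, 4.62% and 5.31% of these groups, with overlapping intervals. NEMF and TAF12, the genes of highest coverage that stood at the start, had RN7SL3 and RNU11 there.

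Orderly and disordered genes differed little in their own structure and more in their surroundings. Median coverage was 284 rpm in orderly (95% interval 267 to 299) and 240 rpm in disordered genes (230 to 252), but 363 rpm in both among genes of 200 rpm or more. The share of orderly genes was 13.2% at 100 to 150 rpm, 17.6% at 150 to 200 rpm and 22.9% at 200 to 300 rpm. It was 22.2% at 300 to 400 rpm, 19.7% at 400 to 600 rpm, 28.8% at 600 to 1000 rpm and 17.6% above that. It thus did not rise steadily with coverage. Median width was 102 kb in orderly and 97.9 kb in disordered genes, and the intervals overlapped. Exons of the canonical transcript numbered 14 and 15 (medians). The first intron had a median of 19.4 kb (16.7 to 21.9) in orderly and 15.6 kb (14.1 to 17.3) in disordered genes. The 200 bases before the gene start held a median of 17 CpG and were 65% G and C in both groups.

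Another protein-coding gene overlapped the window in 54.3% of orderly (49.7% to 58.8%) and 65.8% of disordered genes (63.6% to 67.9%). A wave peak at the window start at 20 min or later bars a gene from being orderly. Another coding gene covered the window start in 14.7% of orderly (11.8% to 18.3%) and 27.5% of disordered genes (25.6% to 29.6%). Genes with no other coding gene in the window were orderly in 24.7% (208 of 843) and the others in 16.8% (247 of 1467), and these intervals did not overlap. A canonical start over 5 kb after the gene start was as frequent in orderly (18.9%) as in disordered genes (18.2%).

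Gene lists by function were compared with the whole. Of 54 genes of transcription elongation and 3′ end processing with at least 100 rpm, 19 were orderly (35.2%), of 92 chromatin modifiers 28 (30.4%), of 90 membrane trafficking genes 23 (25.6%), of 110 ubiquitin ligases and deubiquitinases 24 (21.8%) and of 111 protein kinases 19 (17.1%), beside 19.7% of all 2419 genes and 13.2% of all listed. The median wave peaks of the elongation list lay at -1.29, 3.10, 6.57 and 8.73 kb, each nearer the TSS than the medians over all genes. The first of these lies before the TSS, near the first position of the window. Of the 54 genes 8 stood at the window start at all times, against 233 of all 2419. Any wave peak beyond the gene end was found in 3 of them, against 607. Those of the kinases lay at 4.57, 6.63, 10.4 and 10.4 kb. Membrane trafficking genes lay at 3.28, 4.85, 9.48 and 10.8 kb. The median slope of the orderly members was 0.346 kb/min in the elongation list, 0.372 in the chromatin list and 0.232 in the ubiquitin list, beside 0.305 over all orderly genes.

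Of the genes named next, TOP1 was taken from the elongation list and the others from the other lists or from the genes the study names. TOP1, the topoisomerase that relaxes supercoils around Pol II, lay at 2.71, 8.87, 11.2 and 45.9 kb, with a last step of 34.7 kb. CDK12, a kinase of the Pol II tail, left the window start by 20 min and lay at 2.73, 4.51 and 5.88 kb. PDPK1, the kinase upstream of AKT, lay at 70.7, 70.9, 71.2 and 72.1 kb, beyond its 65.2 kb. SMARCC1, a core subunit of the BAF remodeller, lay at 1.73, 4.66, 5.41 and 6.59 kb. UBE2K, a ubiquitin-conjugating enzyme, moved by 2.77 kb in all, from 7.39 to 10.2 kb. USP9X, a deubiquitinase, left the window start and lay at 3.45, 6.86 and 9.72 kb, with steps of 3.42 and 2.86 kb after the first. VCL, the focal adhesion protein vinculin, lay at 5.92, 7.67, 9.56 and 18.1 kb. SNX6, a retromer sorting nexin, lay at 94.8, 95.1, 96.0 and 98.98 kb inside EAPP, beyond its 69.1 kb. LRP6, a Wnt co-receptor, went from the window start to 9.97, 10.6 and 11.6 kb. ENAH, an actin regulator, left the window start by 30 min (a step of 6.81 kb and then 2.45 kb). USP24, a deubiquitinase, had growing steps of 3.54, 9.85 and 29.2 kb, and OSBPL3, an oxysterol binding protein, had a first step of -94.9 kb.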

How the data were processed

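DRB/TTchem-seq reads were paired-end. The authors counted coverage over windows around the TSS of non-overlapping protein-coding genes, normalized it to sequencing depth and called wave peaks with a published pipeline. The deposited coverage is named RPKM but sums to 1000000 over genes and was read as RPM. Positions were deposited in bp, and 2 kb were subtracted. The build in the submitters' processing notes is GRCh38. Which aligner served these libraries is not given in the sources used here, and depth is unknown. The deposited filter mark was used as an alternative, and deposited rates only to check that they equal a 5-point slope (4592 genes, within 1e-04 kb/min).

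Slopes are least squares over 4 times. There was 1 library per time, no test and no pairing. Functions were tested on simulated waves. Symbols (4590 genes), canonical transcripts and neighbours came from GENCODE release 44, and bases from GRCh38. Genes of chromosome 8 were left out when the sequences to print were chosen. Members, lists and named genes were chosen with earlier results of these data known. Named genes were the extremes of slope, relative scatter, step, coverage and distance beyond the end, the 2 orderly members of highest coverage per list, and 3 genes the study names. The canonical start, leaving times, standing genes, CpG and neighbour cases were added after values were seen. Some genes given by these rules are not reported here. Alternatives changed the coverage minimum, window ends, order rule, fit points and genes included. Python 3.11.15, numpy 2.4.6, pandas 2.3.3, scipy 1.17.1 and matplotlib 3.10.9 were used.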

Additional observations from a re-analysis of the deposited data

How the results depend on the processing

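No paired analysis was possible because each release time is 1 library of 1 group. Leaving out a time is the nearest to leaving out a library, and the share of orderly genes was then 34.1%, 34.9%, 34.9% and 31.4% without the 10, 20, 30 and 40 min time, since fewer steps must be in order. Values were compared with the 95% interval of the value in the report. Of 87 alternative values 66 left it and 21 did not, and no cause was tested beyond what an alternative changes by its construction.

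With no coverage minimum the median wave peaks were 14.7, 7.67, 17.3 and 17.5 kb, 13.2% of genes were orderly, and 16.1%, 17.7%, 18.0% and 18.2% of wave peaks lay beyond the gene end. At 200 rpm or more the medians were 6.87, 7.96, 15.9 and 16.2 kb, 22.4% were orderly, the median coverage of orderly and disordered genes was 363 and 363 rpm, and the median width of disordered genes was 90.8 kb. The difference in coverage is thus not seen at this minimum. Without wave peaks at the ends of the window the medians were 43.1, 8.85, 14.7 and 13.9 kb. With no coverage minimum and without the window ends the median so fell from 10 to 20 min, in place of the rise in the report. Without those beyond the gene end the medians were 2.04, 4.31, 8.03 and 9.496 kb.

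The share of orderly genes was 42.6% with equal neighbours counted as in order, 9.38% with each step of at least 1 kb, 25.4% with all 4 wave peaks inside the gene and 24.7% with no other coding gene in the window. The median steps were 2.64, 1.47 and 2.03 kb in the genes marked by the authors. With all wave peaks inside the gene the first and last were 2.69 and 2.05 kb. With a 10 min wave peak after the TSS the first steps were 2.55 and 1.47 kb, and means in place of medians gave 6.35, 3.97 and 8.77 kb. The median slope was 0.400 kb/min with a point at 0 min, 0.227 kb/min inside the gene and 0.213 kb/min in the marked genes.

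Wave peaks beyond the end made up 28.0%, 30.0%, 32.0% and 32.3% in genes narrower than 120 kb, 10.3%, 12.6%, 13.2% and 14.5% in orderly genes, and 16.7%, 18.0%, 19.2% and 19.4% when they had to lie over 5 kb beyond. Those in another coding gene were 87.2% at 10 min in orderly genes, and 95.4%, 96.1% and 96.5% from 20 to 40 min without the last position. From the canonical start the medians of orderly genes inside the gene were 3.24, 6.28, 8.15 and 10.5 kb, against 4.93, 8.20, 9.90 and 18.1 kb. Disordered genes with a backward step had a median coverage of 258 rpm. The canonical start, the 10 min wave peak after the TSS, genes with no neighbour, the last position, orderly genes for neighbour shares, and the 200 rpm minimum for the lists and for orderly against disordered genes were chosen after seeing the data. Depth per library is unknown, so no value could be tied to it.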
